A study of Sus scrofa with 12 samples.

Results

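Matrix proteases and their inhibitors were the 48 genes, of 20674 in the table, whose symbol begins with MMP, TIMP, ADAMTS or ADAMTSL and continues with a digit. The symbol alone chose them, and no measured value did. They comprised 20 matrix metalloproteinases (MMPs), 4 tissue inhibitors of metalloproteinases (TIMPs), 19 ADAMTS proteases and 5 ADAMTSL proteins. Their mRNA was measured by sequencing in the endometrium, the lining of the uterus, of Landrace × Yorkshire sows of the second or the third parity after a gestation of 114 days. The low-fiber groups L − N and L + N were fed 3.73% crude fiber and the high-fiber groups H − N and H + N 7.46%, from breeding onward. N-carbamylglutamate (NCG), an activator of arginine synthesis in the body, was added at 0.05% of the diet in L + N and H + N. Each group had 3 libraries, 12 in all. L − N was the basal control, and the questions were what fiber, NCG and both together changed. The high-fiber diets held less corn and had soybean bran and beet pulp as fiber sources, so the fiber level and the feed ingredients cannot be told apart. The labels do not tie a library to a sow, so the p-values measure the spread between these libraries.

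MMPs are zinc-dependent enzymes that cut collagens, proteoglycans and other proteins outside the cell. Most are secreted as inactive proenzymes, the membrane-type members are anchored at the cell surface, and the TIMPs block the active enzymes. ADAMTS proteases carry thrombospondin repeats and cut large proteoglycans or trim procollagen, and the ADAMTSL proteins resemble them but lack the protease domain. In the uterus these families take part in remodeling the endometrial matrix at implantation, during placental attachment and around birth.

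The total count per library ranged from 14369781 to 19309724. Between replicates the spread over genes was far above counting error, with a biological coefficient of variation of 0.269. The spread between libraries and not the depth thus limited the precision, except for genes with few reads, where counting error also did. Markers of cell types were read in each library. The 5 epithelial markers found of 6 listed (such as EPCAM and CDH1) summed to 948 to 2150.1 CPM (counts scaled to the library size). The 6 stromal markers (such as COL1A1 and DCN) summed to 24725 to 60697 CPM. None of these markers was at 0 in any library. Other uterine tissue also holds epithelium and stroma, so these sums do not test the tissue label. Several libraries stood apart. The smooth muscle markers summed to 3793, 1025 and 1441 CPM in L − N replicates 1, 2 and 3, and to 562 to 1170.1 CPM in the other 9 libraries. The macrophage markers summed to 452, 1379 and 1409 CPM in L − N and to 239 to 515 CPM in the other 9 libraries. Markers of dividing cells summed to 48.5 to 148 CPM in L − N, 156 to 209.9 in H − N, 279.9 to 391 in L + N and 264 to 364 in H + N. Neutrophil markers summed to 4.92 to 172 CPM in H − N, with the highest sum in replicate 3. In bulk tissue, fewer cells of a type and less RNA per cell cannot be told apart.

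Levels of different members were compared per length as FPKM, which divides the reads by gene length and by the library total. A few members held nearly all of the signal. Of the 48 members, 6 had a mean of at least 100 FPKM over the 12 libraries, 7 lay between 10 and 100, 20 between 1 and 10, and 15 under 1 FPKM. The gelatinase MMP2, which degrades basement membrane and denatured collagen, was the most abundant with a mean of 798 FPKM and a range of 451 to 1327. MMP7 (matrilysin), a small epithelial protease, followed with 507 FPKM and the wide range of 41.4 to 1512. MMP14, the membrane-type enzyme that activates pro-MMP2, had 496 FPKM, from 263 to 1104. The ranges of these enzymes overlapped. Together MMP2, MMP7 and MMP14 made up 92.3% to 97.9% of the summed FPKM of the 20 MMPs in every library.

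The inhibitors came next. TIMP2, which also takes part in the activation of pro-MMP2 by MMP14, had a mean of 223 FPKM, from 94.1 to 441. TIMP3, the inhibitor that binds to the matrix, had 174 FPKM, from 103 to 241, and TIMP1 107 FPKM, from 63.8 to 408. TIMP4, the least abundant inhibitor, had 4.86 FPKM. Among the ADAMTS proteases, the proteoglycanase ADAMTS1 led with 60.5 FPKM, and made up 21.0% to 44.5% of the summed FPKM of the 19. It was followed by ADAMTS2, which removes the amino-terminal propeptide of procollagens (27.7 FPKM), and by the proteoglycanase ADAMTS15 (26.5 FPKM). MMP19, with 25.9 FPKM, completed the 10 most abundant members. The collagenases MMP1, MMP8 and MMP13 had means of 3.27, 0.299 and 0.435 FPKM.

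**Figure D1:**
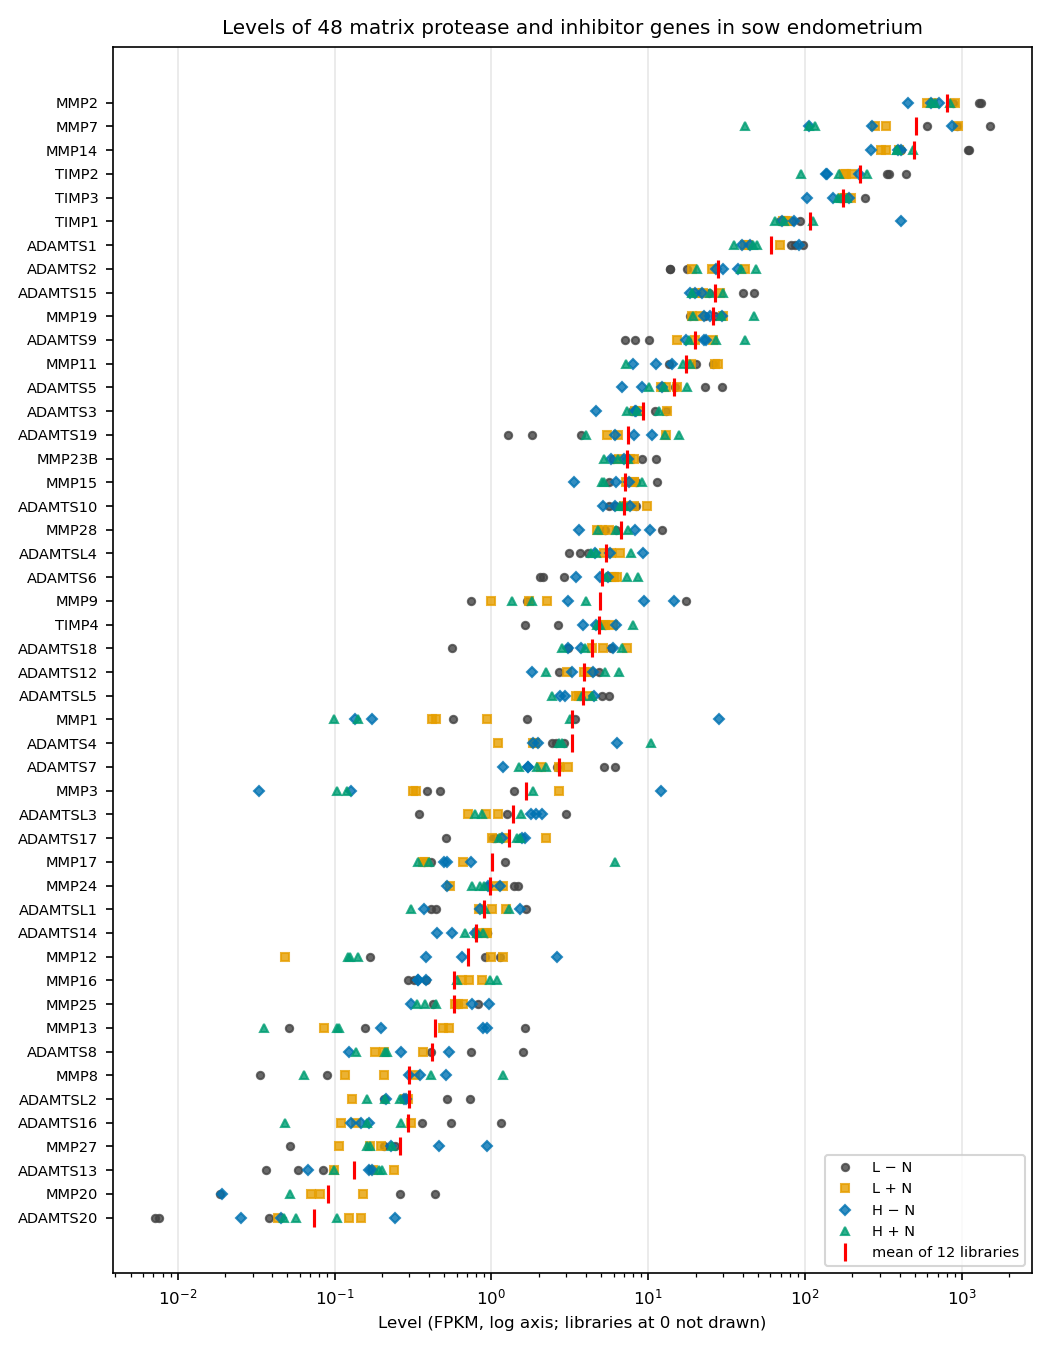
Level of each of the 48 members in each of the 12 libraries (FPKM, log axis), with the mean as a red bar and libraries at 0 not drawn. MMP2, MMP7, MMP14 and 3 inhibitors lie at or above 100 FPKM on average, and 15 members lie under 1.

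After genes with low counts were removed, 46 members were tested among 15351 genes. MMP20 and MMP27, both at a low level in these libraries, were not. A gene was called when its log2 fold change was past 1 in either direction and its adjusted p was under 0.05 (quasi-likelihood test of edgeR, Benjamini-Hochberg adjustment over all genes tested). Every adjusted p given here comes from that test, and log2 fold changes are differences between groups in normalized counts. In L + N against L − N, 5 of the 46 members were called (10.9%, against 3.99% of all genes). ADAMTS6, ADAMTS9 and MMP16 rose, and MMP14 and TIMP2 fell (3 higher against a background of 3.32%, 2 lower against 0.671%). In H − N against L − N, 6 members were called (13.0%, against 2.91%). ADAMTS9 rose (1 member, background 0.892%), and MMP2, MMP14, TIMP2, ADAMTS5 and ADAMTS7 fell (5 members, background 2.01%). In H + N against L − N, 8 members were called (17.4%, against 3.58%). ADAMTS6, ADAMTS9, ADAMTS19 and MMP16 rose (4 members, background 2.29%), and MMP7, TIMP2, ADAMTS7 and ADAMTS8 fell (4 members, background 1.28%). These 3 comparisons share the L − N libraries, so they are not independent of each other. The median log2 fold change of the 46 members was −0.23 for L + N, −0.04 for H − N and −0.34 for H + N against L − N, beside −0.02, 0.03 and 0.02 over all genes, and 16, 23 and 16 members had a value above 0.

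**Figure D2:**
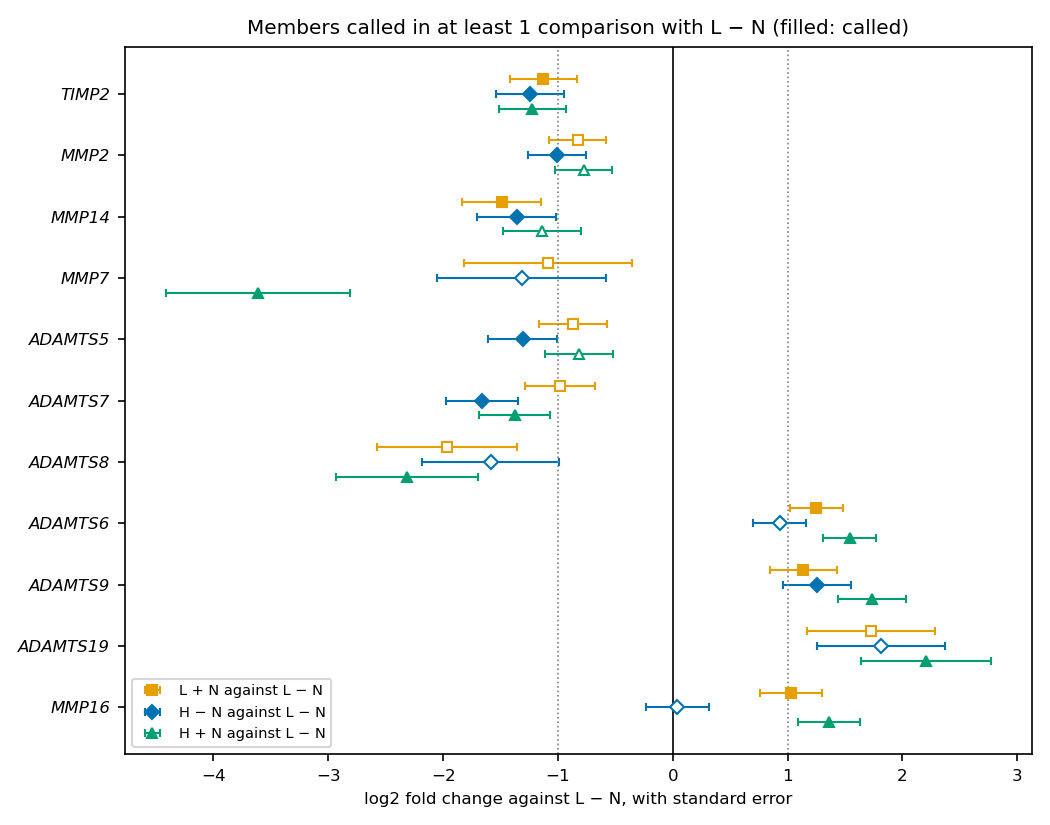
Fitted log2 fold change against L − N (points, with the standard error as bars) of the 11 members called in at least 1 of the 3 comparisons with L − N, which share their control libraries. Filled points were called, and dotted lines mark a log2 fold change of 1 in either direction.

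The called members are shown here by role, beginning with the inhibitors. TIMP2 (gene 396988, chromosome 12, 3254794 to 3300835, build Sscrofa11.1) was measured at 1240.0, 1347 and 1733 CPM in L − N, 615, 654 and 708 in L + N, 481, 809 and 537 in H − N and 609, 881 and 363 in H + N. All L − N libraries were above the other 9, and the groups other than L − N overlapped. The mean was 1439.7 ± 259 CPM (SD, n = 3) in L − N and 659 ± 46.5 in L + N. TIMP2 fell in all comparisons with L − N, with log2 fold changes of −1.13 (SE 0.293, adjusted p = 0.0358) in L + N, −1.24 (SE 0.293, adjusted p = 0.0381) in H − N and −1.22 (SE 0.293, adjusted p = 0.0329) in H + N. In FPKM, TIMP2 made up 49.7% to 64.4% of the summed inhibitors in L − N, 41.1% to 42.0% in L + N, 21.1% to 45.2% in H − N and 25.2% to 50.6% in H + N.

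The other inhibitors were not called in any of the 8 comparisons. TIMP3 had 927 ± 166 CPM (SD, n = 3) in L − N and 800.0 ± 51.8 in H + N, a log2 fold change of −0.21 (SE 0.194, adjusted p = 0.512). TIMP4 had 30.6, 10.03 and 16.4 CPM in L − N and 28.5, 44.8 and 28.3 in H + N, a log2 fold change of 0.83 (SE 0.338, adjusted p = 0.138). TIMP1 ranged from 43.9 to 84.1 CPM in L − N, L + N and H + N, but was at 58.2, 50.8 and 309 CPM in H − N replicates 1, 2 and 3. Of the 4 inhibitors 1 fell and 3 did not pass the test in each comparison with L − N. TIMP1, TIMP3 and TIMP4 each lie wholly within a synapsin gene (SYN1, SYN3 and SYN2) on the opposite strand. On the same strand, 2001 bases of TIMP2 overlap CEP295NL. The study's methods describe strand-specific libraries, while the protocol in the labels names no strand step. Whether the counting used the strand is not given in the sources used here, so reads of the pairs on opposite strands may not have been told apart. In the stretch that TIMP2 shares with CEP295NL, the strand cannot tell the reads apart.

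MMP2 (gene 397391, chromosome 6, 30059247 to 30087031) was measured at 2732, 4183 and 4346 CPM in L − N, 1895, 1783 and 2669.7 in L + N, 1336, 1954 and 2306 in H − N and 1939, 2494 and 2148 in H + N. All L − N libraries were above the other 9, the lowest of them by a narrow margin. The log2 fold change was −1.01 (SE 0.250, adjusted p = 0.0432) in H − N, where MMP2 fell, and −0.83 (SE 0.249, adjusted p = 0.0586) in L + N and −0.77 (SE 0.249, adjusted p = 0.0731) in H + N, which did not pass. The other gelatinase, MMP9, which neutrophils and macrophages also make, ranged from 1.81 to 40.1 CPM in L − N and was not called. MMP14 (gene 397471, chromosome 7, 76174502 to 76185931) was measured at 1682, 4769.6 and 4757 CPM in L − N, 1250.0, 1199 and 1543 in L + N, 1031, 1578 and 1756 in H − N and 1566, 1896 and 1641 in H + N. The levels in L − N replicates 2 and 3 were far above every other library, and L − N replicate 1 lay among those of H − N and H + N. MMP14 fell in L + N, with a log2 fold change of −1.49 (SE 0.343, adjusted p = 0.0232), and in H − N, with −1.36 (SE 0.342, adjusted p = 0.045). In H + N the value was −1.14 (SE 0.341, adjusted p = 0.062). Its L − N pattern was also that of the macrophage marker sum, 452, 1379 and 1409 CPM in the same replicates. All 6 macrophage markers were fitted lower in each comparison with L − N, and 2, 4 and 3 of them were called lower in L + N, H − N and H + N. The part of these cells in the MMP14, MMP2 and TIMP2 results was not tested.

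**Figure D3:**
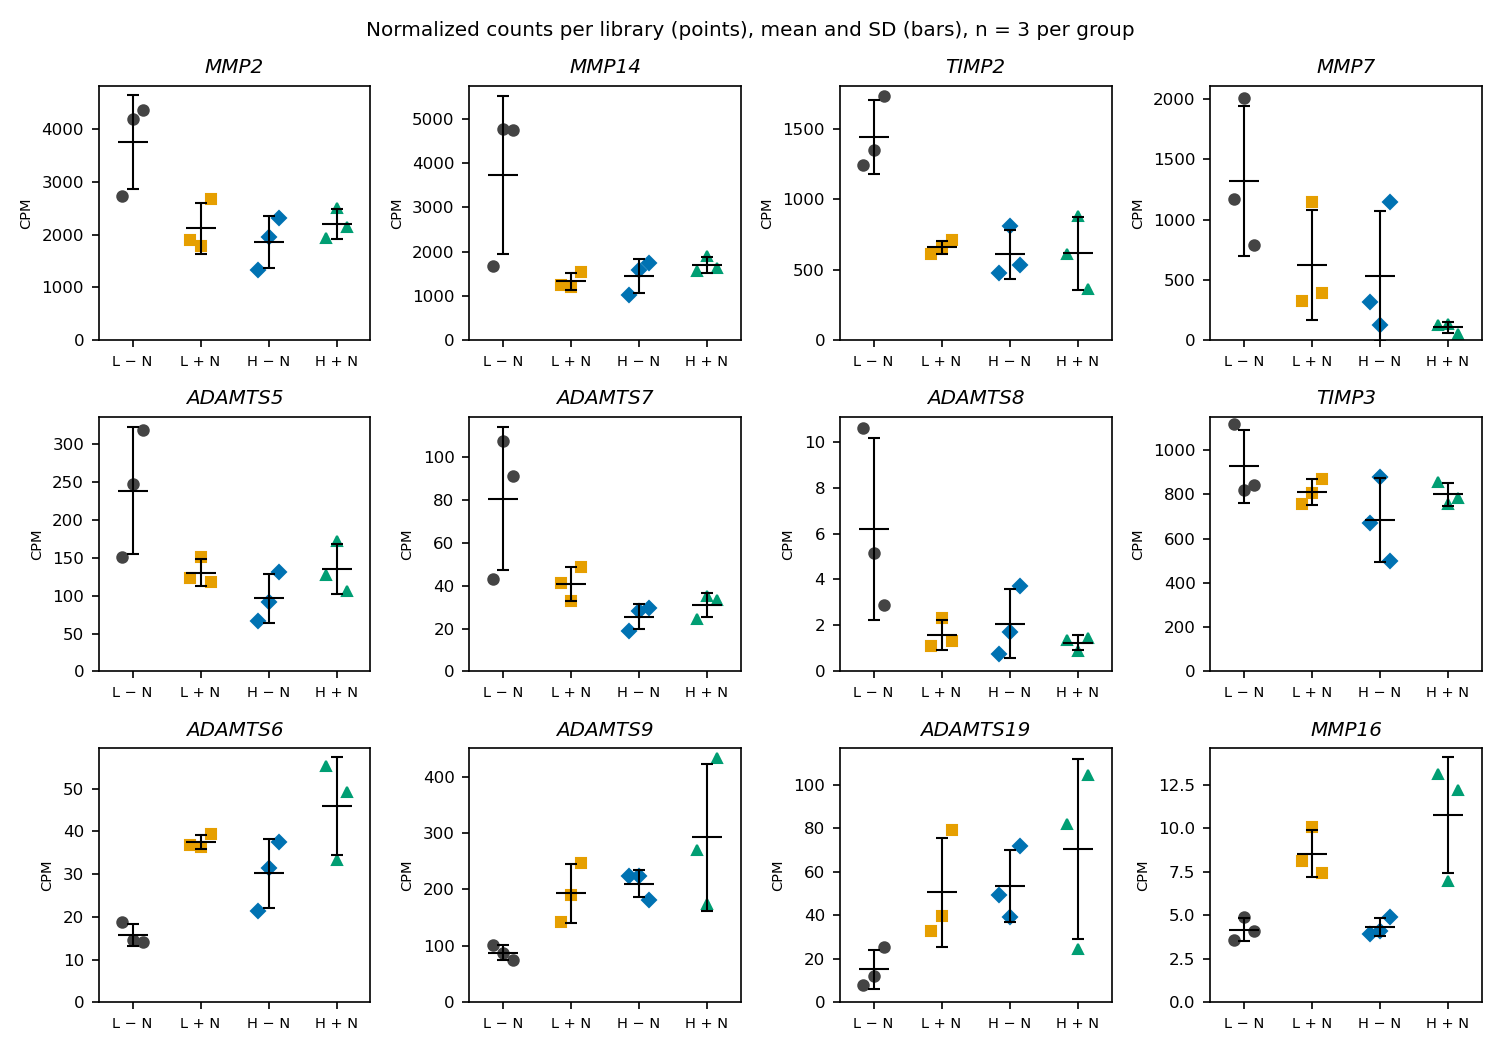
Normalized counts (CPM, linear axes from 0) of 12 members in each library (points), with the mean and the SD as bars, 3 libraries per group. MMP2 and TIMP2 lie higher in L − N than in every other library, while MMP16 is higher in both NCG groups, and TIMP3, which was called in no comparison, is shown beside them.

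MMP7 (gene 397411, chromosome 9, 33214590 to 33225080) had the largest log2 difference among the 20 calls. It was measured at 1173, 2006 and 789 CPM in L − N, 327, 1145 and 392 in L + N, 319, 131 and 1144 in H − N and 131, 139.6 and 54.02 in H + N. All H + N libraries were below all L − N and all L + N libraries, and 1 of L + N and 1 of H − N reached the level of L − N. MMP7 fell in H + N against L − N with a log2 fold change of −3.61 (SE 0.803, adjusted p = 0.0275), and had values of −1.09 (SE 0.732, adjusted p = 0.36) in L + N and −1.32 (SE 0.736, adjusted p = 0.296) in H − N. Against the single diets it had −2.29 (SE 0.760, unadjusted p = 0.0114, adjusted p = 0.474) for H + N against H − N and −2.52 (SE 0.767, unadjusted p = 0.00701, adjusted p = 0.91) for H + N against L + N, which did not pass after adjustment. The epithelial marker sum, 948 to 1342 CPM in L − N and 1119.8 to 1209 in H + N, overlapped between these groups. It was 1331 to 1398 CPM in L + N and 1434 to 2150.1 in H − N, so all H + N libraries lay below both of these groups. All 5 markers were fitted lower in H + N against L + N and against H − N, and 0 of the 5 was called. The part of epithelial cells in the MMP7 result was not tested. MMP7 lies at one end of a row of 8 MMP genes on chromosome 9, between 33214590 and 33616700, with MMP20, MMP27, MMP8, MMP1, MMP3, MMP12 and MMP13. None of the other tested genes of this row was called in any comparison.

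Among the ADAMTS proteases, several were lower than in L − N. ADAMTS7 (gene 100154398, chromosome 7, 47919398 to 47994528), which cuts cartilage oligomeric matrix protein, was measured at 43.2, 107 and 91.1 CPM in L − N, 41.2, 32.8 and 48.5 in L + N, 18.8, 28.02 and 29.8 in H − N and 24.5, 35.1 and 33.4 in H + N. All high-fiber libraries were below all L − N libraries, and L + N overlapped L − N. ADAMTS7 fell in H − N, with a log2 fold change of −1.66 (SE 0.312, adjusted p = 0.023), and in H + N, with −1.38 (SE 0.309, adjusted p = 0.0281), and had −0.98 (SE 0.306, adjusted p = 0.0663) in L + N. On the opposite strand, 7890 bases of ADAMTS7 overlap TBC1D2B. ADAMTS5 (gene 100522952, chromosome 13, 190353019 to 190413110), a major aggrecan- and versican-cleaving enzyme, was measured at 151, 247 and 319 CPM in L − N, 123, 151 and 118 in L + N, 66.7, 92.03 and 131 in H − N and 128, 172 and 106 in H + N. The H − N libraries were below all of L − N, and 1 of H + N lay within the range of L − N. The L + N libraries were also below, but L + N replicate 2 (150.7 CPM) lay barely under L − N replicate 1 (150.9 CPM). ADAMTS5 fell in H − N with −1.31 (SE 0.300, adjusted p = 0.0352), and had −0.87 (SE 0.297, adjusted p = 0.0861) in L + N and −0.82 (SE 0.296, adjusted p = 0.102) in H + N. For ADAMTS7 and ADAMTS5, L − N replicate 1 was the lowest of its group, as for the macrophage marker sum (452, 1379 and 1409 CPM). The part of macrophages in the ADAMTS7 and ADAMTS5 results was not tested. ADAMTS1, the neighbor of ADAMTS5 on chromosome 13, was at 348, 409.6 and 348 CPM in L − N and 186, 136 and 208 in H + N, a log2 fold change of −1.06 (SE 0.331, adjusted p = 0.0684) that did not pass.

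ADAMTS8 (gene 100518855, chromosome 9, 57090313 to 57113077), another proteoglycanase, was at a low level, 10.6, 5.14 and 2.89 CPM in L − N, 1.12, 2.33 and 1.31 in L + N, 0.777, 1.73 and 3.72 in H − N and 1.38, 0.869 and 1.47 in H + N. The L + N and H + N libraries were below all of L − N, and H − N overlapped it. The highest level was that of L − N replicate 1, the library with the high smooth muscle marker sum. ADAMTS8 fell in H + N, with a log2 fold change of −2.32 (SE 0.618, adjusted p = 0.0447), and had −1.97 (SE 0.606, adjusted p = 0.0635) in L + N and −1.59 (SE 0.598, adjusted p = 0.135) in H − N. The part of smooth muscle in this result was not tested. Its neighbor on chromosome 9, ADAMTS15, had 143, 247 and 289 CPM in L − N and 111, 107 and 134 in H − N, a log2 fold change of −0.95 (SE 0.258, adjusted p = 0.0567) that did not pass.

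Other ADAMTS proteases were higher than in L − N. ADAMTS9 (gene 100520218, chromosome 13, 46033753 to 46209238), a versican-cleaving enzyme, was measured at 101, 87.2 and 75.4 CPM in L − N, 143, 190.1 and 248 in L + N, 224, 224 and 182 in H − N and 270.3, 175 and 433 in H + N. All 9 other libraries were above all L − N libraries. ADAMTS9 was the only member called higher in all 3 comparisons with L − N, with log2 fold changes of 1.14 (SE 0.294, adjusted p = 0.0352) in L + N, 1.26 (SE 0.294, adjusted p = 0.0372) in H − N and 1.73 (SE 0.298, adjusted p = 0.0158) in H + N. ADAMTS6 (gene 100513765, chromosome 16, 43702519 to 44010820) was measured at 18.8, 14.5 and 14.04 CPM in L − N, 36.8, 36.3 and 39.4 in L + N, 21.5, 31.5 and 37.6 in H − N and 55.3, 33.3 and 49.2 in H + N. Again all 9 other libraries were above L − N. ADAMTS6 rose in L + N, with a log2 fold change of 1.25 (SE 0.230, adjusted p = 0.0115), and in H + N, with 1.54 (SE 0.231, adjusted p = 0.0136), and in H − N had 0.93 (SE 0.230, adjusted p = 0.0428), under the threshold on the fold change. A stretch of 2148 bases of ADAMTS6 overlaps CENPK, a centromere gene, on the same strand. The markers of dividing cells moved in the same direction: against L − N, 5 of 5 were called higher in L + N and in H + N. In H − N 1 of 5 was, and their part in the ADAMTS6 result was not tested.

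ADAMTS19 (gene 100518181, chromosome 2, 132145266 to 132413116) was measured at 8.21, 12.2 and 25.4 CPM in L − N, 32.6, 39.8 and 79.2 in L + N, 49.5, 39.3 and 71.8 in H − N and 82.1, 24.7 and 104 in H + N. The lowest H + N library lay under the highest of L − N. ADAMTS19 rose in H + N with 2.21 (SE 0.564, adjusted p = 0.0396), and had 1.73 (SE 0.557, adjusted p = 0.0735) in L + N and 1.81 (SE 0.558, adjusted p = 0.0811) in H − N, where the groups did not overlap with L − N. ADAMTS2, a trimming enzyme of procollagen, had 124, 102 and 103 CPM in L − N against 125 to 353 CPM in the other 9 libraries, all higher. The margin was narrow, with 124.03 CPM in L − N replicate 1 and 124.8 CPM in L + N replicate 1. The ADAMTS2 values of 0.81 (SE 0.339, adjusted p = 0.15), 1.02 (SE 0.341, adjusted p = 0.0992) and 1.21 (SE 0.342, adjusted p = 0.0521) in L + N, H − N and H + N did not pass. The stromal marker sum was 29056, 25648 and 26153 CPM in L − N, 24725, 35925 and 46044 in L + N, 33595, 37823 and 60697 in H − N and 45757, 32660.1 and 58487 in H + N. All high-fiber libraries were above all of L − N, and L + N overlapped it. Collagens weighed heavily in the sum, with COL3A1 alone at 16112, 17521 and 30248 CPM in H − N. Not all markers followed it: 2 of the 6 were fitted lower in H − N and 1 in H + N against L − N. DCN was at 3889, 2973 and 2625 CPM in L − N and 2105, 2912 and 2352 in H − N. In L + N and H + N the replicates had the same order for this sum as for ADAMTS2, ADAMTS9 and ADAMTS19. In H − N, replicate 3 with the highest sum had the highest ADAMTS2 (277 CPM) and ADAMTS19 (71.8 CPM), but the lowest ADAMTS9 (182 CPM). Of the 6 stromal markers, 0 were called in any comparison, and their part in these results was not tested. In all, ADAMTS2, ADAMTS6 and ADAMTS9 (3 of 46 members, 6.52%, against 4.28% of all genes) were higher in all 9 other libraries than in all of L − N. The reverse held for MMP2, TIMP2 and ADAMTS16 (3 of 46, 6.52%, against 5.28%). These shares were near those of all genes. The 5 ADAMTSL proteins, the 3 procollagen N-proteinases, the 3 collagenases and the 2 stromelysins had 0 called members in each comparison with L − N. The log2 fold changes of the ADAMTSL proteins ranged from −1.15 to 0.56 in L + N, −0.95 to 0.78 in H − N and −1.25 to 0.56 in H + N, and those of the collagenases from −1.80 to 2.21, 0.13 to 3.11 and −2.91 to 3.66.

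The membrane-type protease MMP16 was the 1 member called for NCG over both diets. MMP16 (gene 100153257, chromosome 4, 48556826 to 48867959), which like MMP14 can activate pro-MMP2, was measured at 3.57, 4.89 and 4.10 CPM in L − N, 8.10, 10.1 and 7.46 in L + N, 3.94, 4.09 and 4.90 in H − N and 13.1, 6.95 and 12.2 in H + N. All libraries with NCG were above all libraries without it, on either diet, while L − N and H − N overlapped. On both diets such a separation was found for 1 of 46 members in the higher direction (2.17%, against 4.01% of all genes) and 0 in the lower (against 1.45%). MMP16 rose with NCG over both diets by a log2 fold change of 1.17 (SE 0.190, adjusted p = 0.00738), and it was the 1 member called in that comparison (2.17%, against 1.8% of all genes). On the low-fiber diet alone it rose with 1.03 (SE 0.269, adjusted p = 0.0368), and it rose in H + N against L − N with 1.36 (SE 0.270, adjusted p = 0.0219). On the high-fiber diet alone the value was 1.32 (SE 0.270, unadjusted p = 0.000447, adjusted p = 0.451), which did not pass. H − N against L − N gave 0.04 (SE 0.271). Per length MMP16 was a minor transcript, with 0.295 to 1.09 FPKM. The markers of dividing cells were higher with NCG as well (5 of 5 called), and their part was not tested.

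At an adjusted p under 0.05 without a threshold on the fold change, ADAMTS6 and ADAMTS9 joined MMP16 in the comparison for NCG (3 members, 6.52%, against 7.27% of all genes), with 0.93 (SE 0.161, adjusted p = 0.00959) and 0.81 (SE 0.206, adjusted p = 0.0383). Fiber over both NCG levels called 0 members (0.0261% of all genes), and 15 of 46 had an unadjusted p under 0.05 (32.6%, against 19.5%). DESeq2 on the same libraries called 5 members and 305 of all genes. The members with the smallest p were ADAMTS7 at −1.03 (SE 0.218, unadjusted p = 0.000587, adjusted p = 0.0678), ADAMTS9 at 0.93 (SE 0.206, unadjusted p = 0.000869, adjusted p = 0.0737) and ADAMTS6 at 0.61 (SE 0.160, unadjusted p = 0.00274, adjusted p = 0.0971). No member was separated between fiber levels both with and without NCG (0 higher, against 1.15% of all genes, and 0 lower, against 0.912%).

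H + N against H − N and H + N against L + N each called 0 members and 0 of all genes (0.0%). For NCG on the high-fiber diet, 5 members had an unadjusted p under 0.05 (10.9%, against 8.67%), and DESeq2 called 1, MMP16, on the 12 libraries (25 of all genes) and 2 on these groups alone (51 of all genes). Among the 5 members with an unadjusted p under 0.05 in edgeR was MMP12, the macrophage elastase (unadjusted p = 0.0134, adjusted p = 0.477). It had 10, 13 and 56 reads in H − N and 3, 3 and 3 in H + N, so its fold rests on at most 3 reads per library on one side. For fiber with NCG, 4 members had an unadjusted p under 0.05 (8.7%, against 4.68%), and DESeq2 called 0. These included ADAMTS4, an aggrecanase, with 3.93, 6.81 and 6.998 CPM in L + N and 10.7, 9.995 and 41.8 in H + N, 1.82 (SE 0.621, unadjusted p = 0.0134, adjusted p = 0.91). MMP17 had 1.60, 1.69 and 2.94 CPM in L + N and 1.58, 1.79 and 29.7 in H + N, 2.41 (SE 0.990, unadjusted p = 0.0326, adjusted p = 0.91). Without H + N replicate 3, the log2 fold change of MMP17 turned to −0.29.

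The interaction, how far NCG acted differently on the high-fiber and the low-fiber diet, was tested directly. It called 0 members and 0 of all genes (0.0%), with 8 members at an unadjusted p under 0.05 (17.4%, against 12.8%), 7 of them higher, and DESeq2 called 1, MMP14, among 187 of all genes. The smallest p belonged to MMP14 at 1.71 (SE 0.479, unadjusted p = 0.00416, adjusted p = 0.257), ADAMTS5 at 1.36 (SE 0.419, unadjusted p = 0.00757, adjusted p = 0.277) and MMP2 at 1.06 (SE 0.351, unadjusted p = 0.0112, adjusted p = 0.294). Their highest mean was in L − N. Without L − N replicate 1, 4 members were called, MMP14, ADAMTS5, ADAMTS7 and ADAMTS15, among 346 of all genes. Over all libraries, edgeR called no member for a difference between the effects of NCG on the 2 diets.

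The calls against L − N depended on single libraries, above all those of L − N itself. Without L − N 3 (replicate 3 of L − N), 0 members were called in each of the 3 comparisons, and the calls over all genes fell from 613 to 143 in L + N, from 446 to 6 in H − N and from 549 to 4 in H + N. Without L − N 1, which had the low macrophage and high smooth muscle sums, 9, 11 and 9 members were called, and the calls over all genes rose to 911, 1120 and 948. Without L − N 2, 1, 0 and 3 members and 543, 122 and 342 of all genes were called. In L + N against L − N, 2, 1 and 1 members, and 415, 183 and 384 of all genes, were called without L + N 1, 2 and 3. In H − N against L − N, 0, 1 and 2 members, and 0, 165 and 159 of all genes, were called without H − N 1, 2 and 3. Without L + N 1, L + N 2 and H + N 1 these were 3, 2 and 1 members and 314, 304 and 300 of all genes. In H + N against L − N, 0 and 2 members, and 1 and 186 of all genes, were called without H + N 1 and H + N 3. The direction of each of the 20 calls was kept in all 12 fits that left out 1 library.

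Only MMP16 with NCG was called in 12 of 12 fits, with log2 fold changes of 1.09 to 1.30. ADAMTS6 was called in 11 of 12 fits for L + N (1.17 to 1.39, not without L − N 3) and in 10 of 12 fits for H + N (1.36 to 1.71, not without L − N 3 or H + N 1). ADAMTS9 in H + N was called in 10 of 12 fits (1.34 to 1.98, not without L − N 3 or H + N 1) and MMP16 in H + N in 9 of 12 fits (1.17 to 1.59, not without L − N 3, H + N 1 or H + N 3). ADAMTS7, MMP7 and TIMP2 in H + N were each called in 8 of 12 fits, not without L − N 2, L − N 3, H + N 1 or H + N 3. Their ranges were −1.68 to −1.11, −3.88 to −3.18 and −1.57 to −0.95. ADAMTS7 in H − N was called in 8 of 12 fits (−1.96 to −1.40, not without L − N 2, L − N 3, H − N 1 or H − N 2), and ADAMTS9 in L + N in 8 of 12 fits (0.94 to 1.33, not without L − N 2, L − N 3, L + N 2 or L + N 3). The least stable were MMP14 in H − N, called in 1 of 12 fits (−1.71 to −1.15), ADAMTS8 in H + N, called in 2 of 12 fits (−2.66 to −1.69), and MMP2 in H − N, called in 3 of 12 fits (−1.19 to −0.82). The other 7 calls were MMP14 in L + N (7 of 12 fits), MMP16 in L + N (5 of 12 fits), TIMP2 in L + N (6 of 12 fits), ADAMTS5 in H − N (7 of 12 fits), ADAMTS9 in H − N (5 of 12 fits), TIMP2 in H − N (4 of 12 fits) and ADAMTS19 in H + N (5 of 12 fits).

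**Figure D4:**
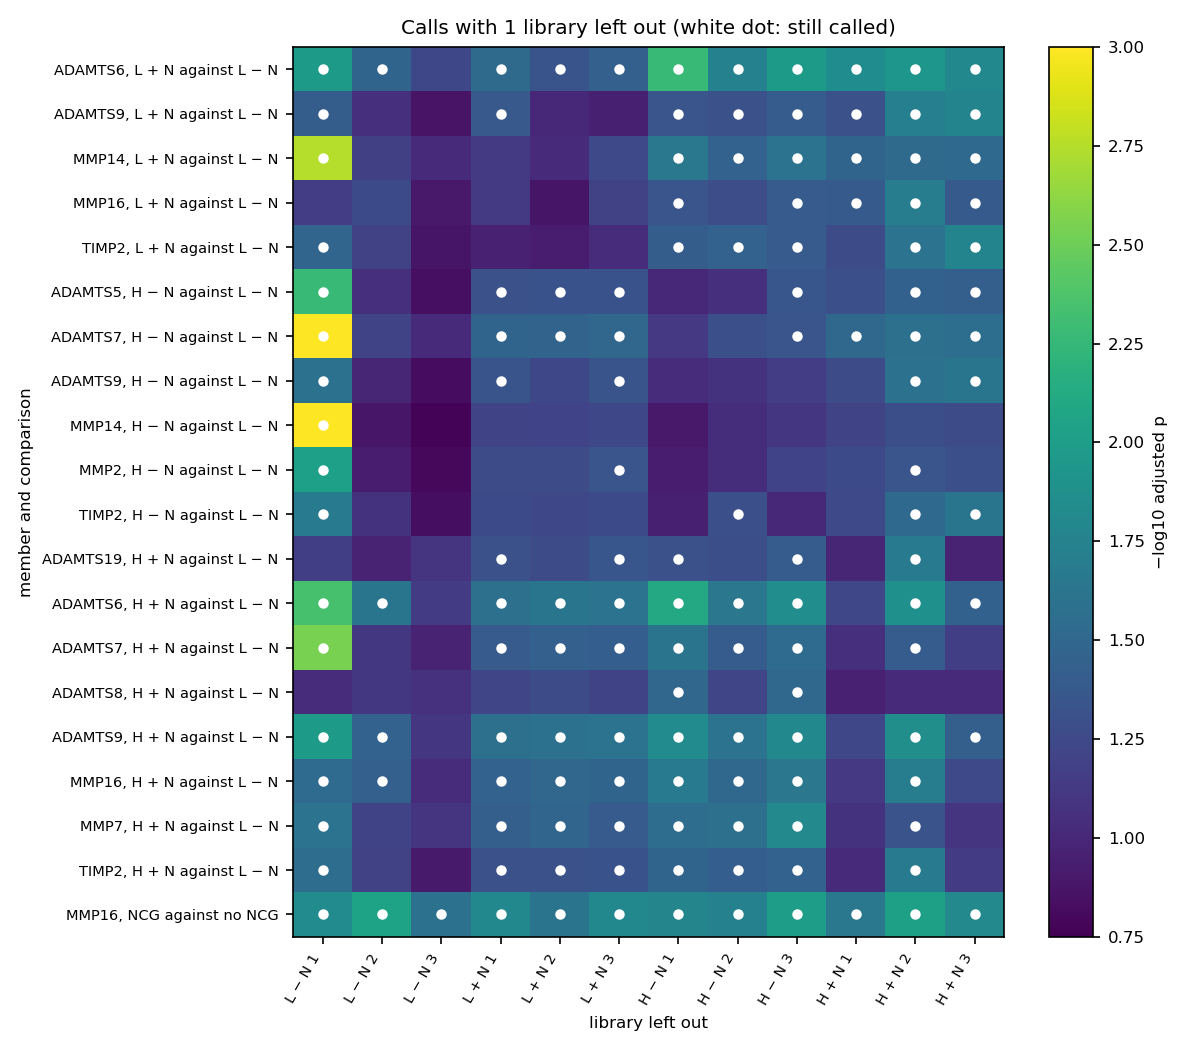
Adjusted p (color, −log10) of the 20 calls when each of the 12 libraries was left out in turn, with a white dot where the gene was still called. The column without L − N 3 has a dot only for MMP16 with NCG, the only call with a dot in every column.

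Several members were high in 1 library of a group, and none of these differences was called. In H − N replicate 3, MMP1 reached 59.4 CPM against 0.259 and 0.347 in the other replicates. MMP3, a stromelysin that activates other MMPs, reached 20.97 CPM against 0.0518 and 0.208. The same library held the highest levels of TIMP1, of the macrophage elastase MMP12, at 3.86 CPM, and the highest neutrophil marker sum, 4.92 to 172 CPM being the range in H − N. MMP9 was at 20.8, 7.004 and 35.3 CPM in H − N replicates 1, 2 and 3. In H + N replicate 3, ADAMTS4 reached 41.8 CPM, MMP17 29.7 and MMP8, a neutrophil collagenase, 4.35, beside a neutrophil sum of 4.94, 4.73 and 16.6 CPM in H + N. In that replicate the sum came mostly from the markers CSF3R (9.38 CPM) and CXCR2 (6.07 CPM). The markers S100A8, S100A9 and S100A12 had only 6, 6 and 7 reads there. In L − N replicate 1, MMP9 was at 40.1 CPM and MMP13 at 8.09, with the other L − N libraries at 4.14 and 1.81 for MMP9 and 0.815 and 0.269 for MMP13. The neutrophil sums in the other groups were 8.02, 49.6 and 21.6 CPM in L − N and 101, 48.7 and 9.68 in L + N. L + N replicates 1 and 2 thus had higher sums than H + N replicate 3, with MMP1 at 0.776 and 1.80 CPM and MMP8 at 0.679 and 1.11 CPM. L − N replicate 1, with the high MMP9, had the lowest sum of its group. The part of neutrophils in these values was not tested.

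**Figure D5:**
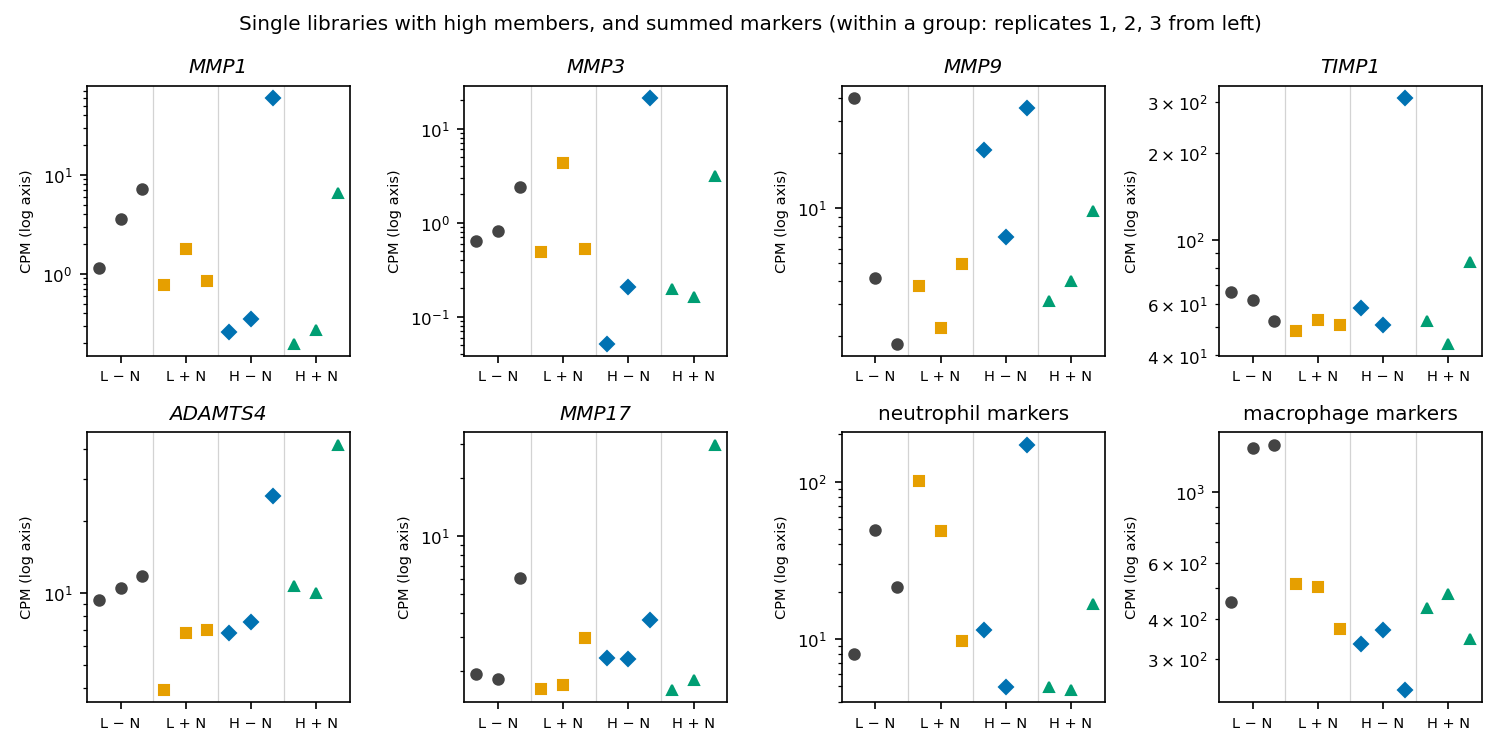
CPM (log axes) of 6 members that were high in single libraries, and the summed neutrophil and macrophage markers, for replicates 1, 2 and 3 of each group from left to right. H − N replicate 3 is the highest library for MMP1, MMP3, TIMP1 and the neutrophil sum, and L − N replicates 2 and 3 are the highest for the macrophage sum.

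Other genes of extracellular proteolysis, a list of 45 plasminogen activators, serpins, ADAM proteases, cathepsins and further activators and inhibitors, were measured in the same way, and 42 of them were tested. In L + N against L − N, 0 rose and 3 fell, in H − N 0 rose and 3 fell, and in H + N 0 rose and 5 fell, against 0.671%, 2.01% and 1.28% of all genes called lower. Cathepsin K (CTSK), a cysteine protease that degrades collagen, was measured at 1437, 4528 and 4536 CPM in L − N and at 282 to 1214 CPM in the other 9 libraries. It fell in L + N, H − N and H + N, with log2 fold changes of −2.14 (SE 0.512, adjusted p = 0.0268), −2.74 (SE 0.525, adjusted p = 0.0235) and −2.13 (SE 0.512, adjusted p = 0.0332). Cathepsin B (CTSB), at 1239.7, 4031 and 4071 CPM in L − N and 758 to 1331 CPM elsewhere, fell with −1.45 (SE 0.351, adjusted p = 0.028), −1.72 (SE 0.353, adjusted p = 0.0279) and −1.34 (SE 0.350, adjusted p = 0.0412). For CTSB, as for MMP14, L − N replicate 1 lay within the range of the other groups. The part of macrophages in the CTSK and CTSB results was not tested.

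Alpha-2-macroglobulin (A2M), a broad protease inhibitor, was at 1500.4, 1264 and 1579 CPM in L − N and 445 to 1078 CPM elsewhere, and fell in H − N with −1.12 (SE 0.274, adjusted p = 0.0423) and in H + N with −1.02 (SE 0.273, adjusted p = 0.0458). HTRA1, a secreted serine protease, was at 651, 1111 and 999.9 CPM in L − N and 355 to 636 CPM elsewhere, and fell in H + N with −1.17 (SE 0.237, adjusted p = 0.0225). The list's median log2 fold change was −0.23, −0.14 and −0.37 in L + N, H − N and H + N against L − N, with 10, 16 and 11 of 42 genes above 0. Without L − N 3, 0 genes of the list were called in each of the 3 comparisons.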

How the data were processed

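Endometrial poly(A) RNA was sequenced in 12 libraries, assigned to 4 groups by the codes in their titles. The authors deposited 1 table with a read count per gene and library, not normalized, and an FPKM value made from it, and per the submitters' processing notes fastp 0.22.0, HISAT2 2.1.0, HTSeq 0.9.1 and the build Sscrofa11.1 were used. Whether counting used the strand is not given in the sources used here. The deposited FPKM values differed from a recalculation by at most 1.91e-05 percent.

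Counts were analysed in R 4.3.3 with edgeR 4.0.16 (TMM scaling, filterByExpr, 1 mean per group over all 12 libraries, 8 residual degrees of freedom from the design). Comparisons were contrasts of group means. Each SE was the absolute log2 fold change divided by the square root of the F statistic of the quasi-likelihood test. Fiber over both NCG levels set the average of the high-fiber groups against that of the low-fiber groups, and NCG over both diets set the supplemented against the other groups. A prior count of 2 was used for the log2 CPM behind the correlations between libraries, and not for the log2 fold changes. Alternatives were RLE scaling, no filter, DESeq2 1.42.0, a replicate block, no threshold on the fold change, and leaving out each library. On 5 simulated data sets for H + N against L − N, 81.6% of 200 genes changed by 2 (log2) among 15351 were recovered, with 6 false calls on average. Most of the 20 calls were smaller than that change, and the simulation held no library that stood apart as a whole. These figures therefore do not give the recovery or the false calls of the results above.

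The text gives with values every TIMP, every called member, the 10 members with the highest mean FPKM and the 3 with the smallest p in each comparison. ADAMTS16, MMP1, MMP3, MMP8, MMP9, MMP12, MMP13 and their single-library values were partly chosen after their values were seen. The members, roles, marker and partner lists and tests were chosen with earlier results of these data known. 1 gene of the partner list, included in its counts, is not reported here. Roles come from general knowledge.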

Additional observations from a re-analysis of the deposited data

How the results depend on the processing

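With 3 libraries per group, the spread between libraries more than the depth limited what could be called. Members under 1 FPKM were measured with few reads, so counting error added to their spread. All 20 calls were kept with RLE scaling, without the filter and with DESeq2 on the 12 libraries, and 16 with a replicate block. DESeq2 on the 12 libraries called 8, 11 and 14 members in L + N, H − N and H + N against L − N, 1 in H + N against H − N, 5 for fiber, 5 for NCG and 1 for the interaction. On 2 groups alone it called 8, 10 and 13 members against L − N (935, 747 and 837 of all genes). In H + N against H − N it called 2 there (51 of all genes). On the 12 libraries DESeq2 called 902, 938 and 1000 of all genes against L − N, where edgeR called 613, 446 and 549. It called 305 for fiber, where edgeR called 4, and 362 for NCG, where edgeR called 276. Without a threshold on the fold change, NCG called 3 members. The cause of these differences was not tested. The replicate numbers did not pair the samples (correlations of same-numbered libraries −0.32 to 0.28, 3 of 18 above 0.1). With a replicate block, NCG called 2 members (241 of all genes), and 4, 6 and 7 members (535, 254 and 397 of all genes) were called against L − N. With each library left out, members called ranged from 0 to 9 in L + N, 0 to 11 in H − N and 0 to 10 in H + N against L − N, from 0 to 1 for fiber, 1 to 3 for NCG and 0 to 4 for the interaction, and were 0 for H + N against H − N and against L + N. The fits with 9, 11 and 10 members against L − N called 911, 1120 and 569 of all genes. Those with 3 for NCG and 4 for the interaction called 278 and 346 of all genes. Of the 240 values of called members in the 12 fits that left out 1 library, 137 passed and 103 did not. MMP17 in H + N against L + N, 2.41 over all libraries, ranged from −0.29 (without H + N replicate 3, its only change of sign) to 2.89 with each library left out. Counts of the partner genes moved in 39 of 128 alternatives.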
